A study of Mus musculus with 6 samples.

Results

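The 9 genes described here encode adrenergic receptors (Adra2a, Adra2b, Adra2c and Adrb1) and muscarinic acetylcholine receptors (Chrm1, Chrm2, Chrm3, Chrm4 and Chrm5). They were chosen by name, and all 9 are among the 21813 gene symbols that have values in the deposited table. Isolated pancreatic islets of 6 male mice aged 3 months were sequenced, 3 of them Ucn3 null and 3 wild-type littermates, with 1 library per animal. Ucn3 encodes urocortin 3, a peptide of the CRF family made by mature beta cells. The sources used here name neither the strain nor the design of the null allele. The islets had been freed with collagenase, and their cell type is labelled mixed, although the protocol for RNA also names FACS.

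Adrenergic receptors bind noradrenaline and adrenaline, and muscarinic receptors bind acetylcholine, so together they carry the sympathetic and parasympathetic input to the islet. All are G protein-coupled receptors. Alpha-2 receptors couple to Gi and Go, lower cyclic AMP and restrain insulin secretion, and beta-1 receptors couple to Gs and raise cyclic AMP. The M1, M3 and M5 receptors couple to Gq, which activates phospholipase C and releases stored calcium, and M3 is known for enhancing glucose-stimulated insulin secretion. The M2 and M4 receptors couple to Gi and Go.

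Values are in RPKM, read density scaled for transcript length and library depth, so levels can be set side by side between genes of different length. The depth of the libraries, estimated from the steps between low values, lay between 42640000 and 51970000 reads. Below, paired group values are mean ± SD with wild type first and null second. Ucn3 averaged 149 ± 11.6 against 1.68 ± 0.10 RPKM (SD, n = 3 each; limma adjusted p = 6.6e-08), and each library matched its label. Defining islet hormones were present in both groups, with Ins2 at 184445 RPKM in the lowest library. Acinar markers, from the exocrine tissue around islets, varied most: the summed level of the 23 listed genes ran from 590 to 7077 RPKM in wild-type animals and from 5305 to 25720 RPKM in the null group, with no listed gene at 0. Summed delta cell markers (7 of 7 in the table) ran from 1762 to 2420 RPKM in wild-type animals. In the null group the sum ran from 696 to 1100 RPKM. Most of this sum was Sst alone, at 1676 to 2320 RPKM in wild type and 643 to 1035 RPKM in null islets. The mean log2 level of the 7 genes ran from 4.48 to 4.62 in wild type and from 3.84 to 4.03 in null islets. None of the 6 delta markers tested in limma passed the adjusted threshold (Sst limma adjusted p = 0.34). In whole islets, fewer cells of a type and less RNA per cell cannot be told apart.

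The islet repertoire was narrow. A single alpha-2 subtype, Adra2a, and a single Gq-coupled muscarinic subtype, Chrm3, carried most of the reads of these receptors, with Chrm4 well below them. Of the 9 genes, 3 averaged at least 1 RPKM over the 6 libraries and entered the test, where 58.0% of all gene symbols did. The other 6 fell under that level and are given as values and estimated reads. None of the 3 tested receptors passed an adjusted p of 0.05 between null and wild-type islets in limma (0 of 3, against 0.0158% or 2 of 12652 genes tested), and none had an unadjusted p under 0.05, against 9.36% of tested genes. The null and wild-type libraries overlapped for all 9 receptors. They did not overlap for 12.9% of all gene symbols, and 9 genes are too few to show a contrast with that share.

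**Figure D1:**
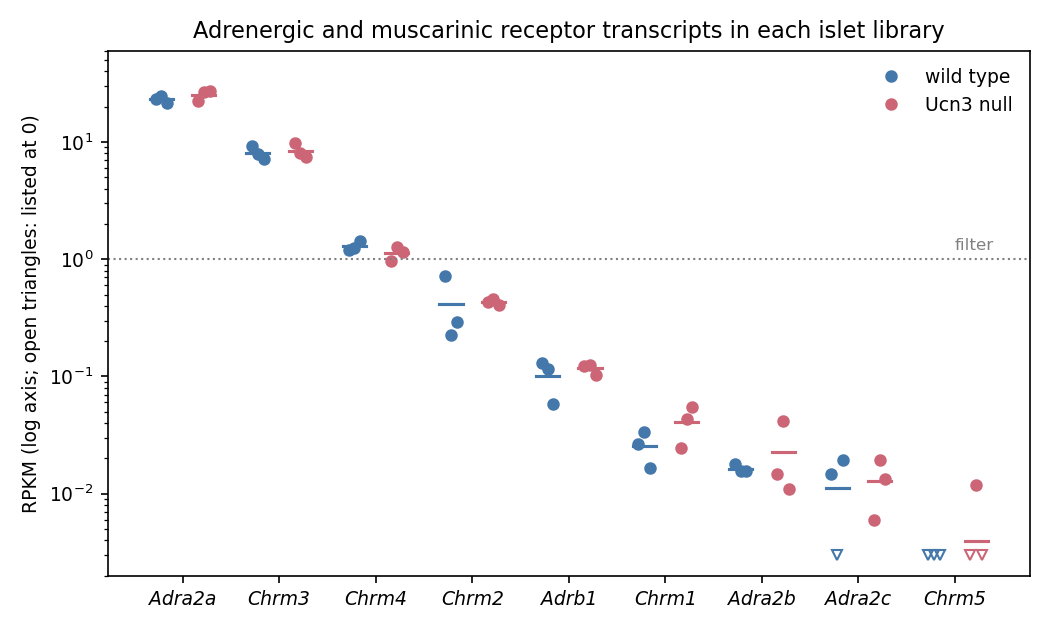
RPKM of each receptor gene (log axis) in the 3 wild-type (blue) and 3 Ucn3 null (red) libraries, with horizontal bars at the group means and open triangles for libraries listed at 0. Adra2a, Chrm3 and Chrm4 lie around or above the dotted line at 1 RPKM, the mean level required for testing, and the groups overlap for every gene.

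Adra2a, the alpha-2A receptor through which noradrenaline restrains insulin secretion, was the most abundant of the 9. It was at 23.2, 24.8 and 21.5 RPKM in the wild-type libraries and at 22.3, 26.7 and 27.0 RPKM in the null libraries. Null libraries 2 and 3 lay above all wild-type libraries, but null library 1 lay below 2 of them, so the groups overlapped. The group means were 23.2 ± 1.68 and 25.3 ± 2.63 RPKM (SD, n = 3 each). These values rest on 3548 to 4607 estimated reads per library. The difference on the log2(RPKM + 1) scale, null minus wild type, was 0.12 (SE 0.10, limma adjusted p = 0.73), with a 95% interval from -0.10 to 0.34, which is 0.932 to 1.27-fold. The mean level of Adra2a over the 6 libraries was above that of 93.1% of all gene symbols.

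The other alpha-2 subtypes were close to the limit of detection. Adra2b, the alpha-2B receptor, was covered by 3, 3 and 3 reads in the wild-type libraries and by 3, 8 and 2 reads in the null libraries. The null library with 8 reads, at 0.042 RPKM, was the highest of the 6, and the exact 95% Poisson interval of its count, 3.45 to 15.8, overlapped that of each library with 3 reads, 0.619 to 8.77. Adra2c, the alpha-2C receptor, was covered by 2, 0 and 3 reads in wild type and by 1, 3 and 2 reads in null islets. The library with no Adra2c read allows up to 0.019 RPKM by the count of 3 reads that a count of 0 permits. Such intervals and limits cover counting error only. At this depth no difference between the groups was detectable for either gene: the ratio of read rates, null to wild type, was 1.37 with a counting interval of 0.543 to 3.64 for Adra2b and 1.14 with 0.290 to 4.72 for Adra2c. Adra2a made up 99.8% to 99.9% of the summed alpha-2 RPKM in each library of both groups.

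The promoter sequences of Adra2a and Adra2b are shown as those of the highest and of a barely detected alpha-2 subtype, at 23.2 and 0.016 RPKM in wild type. The 250 bases before the annotated start hold 22 CG in Adra2a and 23 in Adra2b. The sequences are from RefSeq (GRCm38.p6, plus strand, another build than the mm9 of the table), printed 5′ to 3′ with each CG in capitals. The first is at chr19:54045009-54045258 and the second at chr2:127362929-127363178.
Adra2a: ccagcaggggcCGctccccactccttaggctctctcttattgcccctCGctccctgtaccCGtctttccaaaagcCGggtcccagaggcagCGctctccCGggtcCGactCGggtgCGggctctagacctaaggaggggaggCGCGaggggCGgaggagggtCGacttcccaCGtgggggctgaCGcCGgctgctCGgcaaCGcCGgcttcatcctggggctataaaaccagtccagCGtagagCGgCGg
Adra2b: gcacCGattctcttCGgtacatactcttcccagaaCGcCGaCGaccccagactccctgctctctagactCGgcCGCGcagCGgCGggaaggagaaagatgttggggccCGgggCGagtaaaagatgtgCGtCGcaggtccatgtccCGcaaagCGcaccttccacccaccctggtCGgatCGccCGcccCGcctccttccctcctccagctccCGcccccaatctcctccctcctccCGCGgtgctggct
Of 32851 windows of this length, 14.8% held at least as many CG as Adra2a and 13.3% at least as many as Adra2b. A window was found for 8 of the 9 receptors, all but Chrm1. Chrm4 had 26 CG, Adrb1 24, Chrm2 12, Chrm3 10, Adra2c 6 and Chrm5 2. The letters TATAAA, searched on both strands with no other motif, were present in the window of Adra2a alone among the 8, and in 12.4% of all windows. These matches describe the letters of the windows only.

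Adrb1, the beta-1 receptor, was detected at a low level in every library. The wild-type values were 0.131, 0.116 and 0.058 RPKM and the null values 0.123, 0.125 and 0.103 RPKM, which stand for 14, 14 and 7 reads and for 16, 15 and 12 reads. Wild-type library 3 was the lowest, and the others lay close together. The ratio of read rates was 1.17 with a counting interval of 0.730 to 1.88, and the exact two-sided permutation p of the difference in log2(RPKM + 1) was 0.70 (n = 3 each, smallest possible 0.10). Adra1a, an alpha-1 receptor coupled to Gq that is not among the 9, was at 0.061 ± 0.01 and 0.064 ± 0.01 RPKM (SD, n = 3 each).

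Chrm3, the M3 receptor, was the leading muscarinic gene. It was at 9.33, 7.89 and 7.11 RPKM in the wild-type libraries and at 9.75, 8.10 and 7.51 RPKM in the null libraries. The first library of each group was the highest of its group, and the ranges nearly coincided. The group means were 8.11 ± 1.13 and 8.45 ± 1.16 RPKM (SD, n = 3 each), from 1495 to 2197 estimated reads per library. The difference was 0.05 on the log2(RPKM + 1) scale (SE 0.12, limma adjusted p = 0.93), with a 95% interval from -0.22 to 0.33, which is 0.857 to 1.26-fold. Acinar cells also use M3 receptors, and the libraries with the highest Chrm3 in each group were those with the highest summed acinar level of their group, 7077 RPKM among wild-type and 25720 RPKM among null libraries. Within the null group Chrm3 followed the order of the acinar sums, which were 25720, 14978 and 5305 RPKM in libraries 1, 2 and 3. Within wild type, library 2, with the lowest acinar sum of 590 RPKM, held more Chrm3 than library 3 with 2723 RPKM. Across the groups, null library 2, with an acinar sum of 14978 RPKM, held less Chrm3 than wild-type library 1 with 7077 RPKM. After the acinar mean was added as a covariate, the Chrm3 difference was -0.15 (SE 0.15, limma adjusted p = 0.98). It was -0.03 without wild type replicate 3 and -0.04 without Ucn3 null replicate 1. The part of acinar tissue in the Chrm3 level was not tested. Chrm3 and Ucn3 are both on chromosome 13 in GENCODE M21, with 21 protein-coding genes between them. Of these, 15 were tested in limma, where 0 of 15 passed an adjusted p of 0.05, against 0.0158% of all genes tested. An unadjusted p under 0.05 was found for 4 of 15, a higher share than the 9.36% of all genes tested.

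Chrm4, the M4 receptor, was the leading muscarinic subtype of those coupled to Gi and Go. The wild-type values were 1.19, 1.24 and 1.42 RPKM and the null values 0.963, 1.28 and 1.15 RPKM. Null libraries 1 and 3 lay below all wild-type libraries and null library 2 above 2 of them. The group means were 1.29 ± 0.12 and 1.13 ± 0.16 RPKM (SD, n = 3 each), from 72 to 100 estimated reads per library. The difference was -0.10 on the log2(RPKM + 1) scale (SE 0.10, limma adjusted p = 0.79), with a 95% interval from -0.33 to 0.12. At this level the added 1 RPKM shrinks fold changes, and the plain ratio of the means was 0.881.

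Chrm2, the M2 receptor, varied widely among wild-type libraries. It was at 0.724, 0.224 and 0.293 RPKM in the wild-type libraries and at 0.434, 0.458 and 0.411 RPKM in the null libraries, from 175, 61 and 81 reads and from 128, 125 and 108 reads. The first wild-type library was the highest of the 6 and the others of that group were the lowest, so the null libraries lay within the wild-type range. The highest wild-type library was 3.24 times the lowest, against 1.12 times in null islets. The group means were 0.414 ± 0.27 and 0.434 ± 0.02 RPKM (SD, n = 3 each; exact two-sided permutation p = 1). Summed stellate, fibroblast and mural markers (10 of 10 in the table, none at 0) were 26.4, 14.1 and 19.3 RPKM in the wild-type libraries and 16.4, 20.6 and 17.5 RPKM in the null libraries. Summed Schwann and neuronal markers (12 of 12, none at 0) were 156, 127 and 145 RPKM in the wild-type libraries and 142, 151 and 171 RPKM in the null libraries. In wild type both sums, and the acinar sum (7077, 590 and 2723 RPKM), were highest in the first library and lowest in the second, as Chrm2 was. In the null group the Schwann and neuronal sum was highest in the library with the lowest Chrm2, and the part of these cells in the Chrm2 level was not tested. An exon of the long noncoding RNA gene 9330158H04Rik overlaps Chrm2 on the opposite strand in GENCODE M21, and no source used here says whether the authors counted by strand. Its own row held 0.023 to 0.047 RPKM over the 6 libraries.

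Chrm1 and Chrm5 are the other subtypes coupled to Gq. Chrm1, the M1 receptor, was detected at a low level in every library, covered by 7, 10 and 5 reads in wild type and by 8, 13 and 16 reads in null islets. Null libraries 2 and 3 lay above every wild-type library and null library 1 within their range. The group means were 0.025 ± 0.008 and 0.041 ± 0.02 RPKM (SD, n = 3 each; exact two-sided permutation p = 0.30). The ratio of read rates, 1.60, had a counting interval of 0.918 to 2.84, so no difference was detectable at this depth. Chrm1 was also the 1 receptor with 2 transcript rows, which held nearly the same values. Chrm5, the M5 receptor, was listed at 0 in 5 of the 6 libraries and at 0.012 RPKM, a single read, in Ucn3 null replicate 2. A count of 0 permits up to 3 reads, which is 0.033 to 0.040 RPKM in the libraries without a read.

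Summed over the 5 subtypes, muscarinic RPKM was 11.3, 9.39 and 8.84 in wild type and 11.2, 9.89 and 9.13 in null islets. Chrm3 made up 80.4% to 84.1% of the sum in wild type and 81.9% to 87.3% in null islets. Chrm4 made up 10.6% to 16.1% and 8.62% to 12.9%, and Chrm2 2.38% to 6.43% and 3.88% to 4.63%. Chrm1 stayed below 1% in every library, at most 0.606%. The makeup therefore overlapped between the groups for each subtype, and subtypes coupled to Gq outweighed those coupled to Gi and Go in every library.

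**Figure D2:**
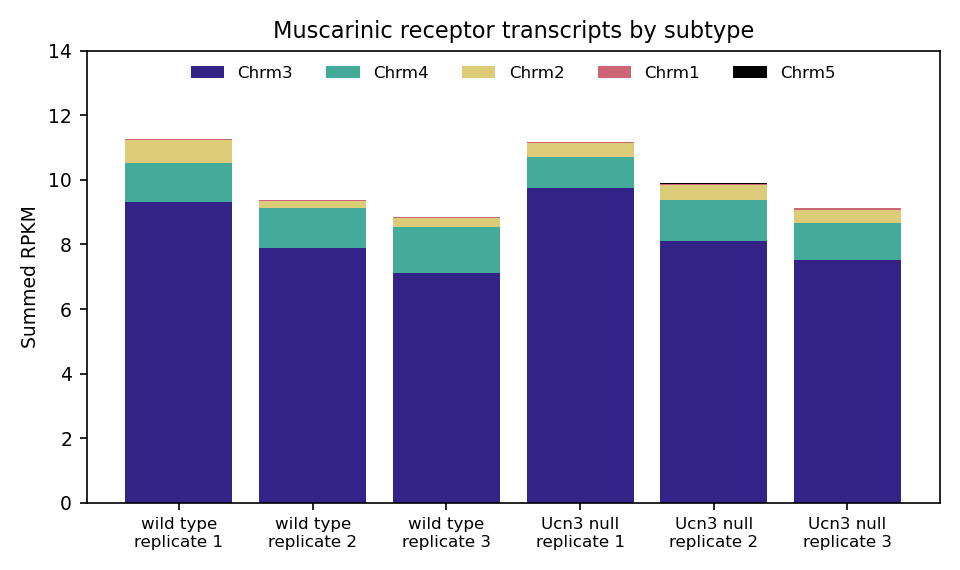
Summed RPKM of the 5 muscarinic receptor genes in each library, with the height of each colour giving 1 subtype. Chrm3 fills 80.4% to 87.3% of every bar, and the sums of the groups overlap.

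The order of the levels was the same in both groups: Adra2a, Chrm3, Chrm4, Chrm2, Adrb1, Chrm1, Adra2b, Adra2c and Chrm5. The ranges of neighbours did not overlap from Adra2a down to Chrm1, in either group. Chrm1 and Adra2b, Adra2b and Adra2c, and Adra2c and Chrm5 overlapped in both groups, so these neighbours did not differ beyond the spread between libraries. Adra2a exceeded Chrm3 by 2.86 times in wild type and 2.99 times in null islets. Within single libraries this ratio ran from 2.48 to 3.15 in wild type and from 2.29 to 3.60 in null islets. Chrm3 exceeded Chrm4 by 6.31 and 7.47 times in wild type and null islets.

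**Figure D3:**
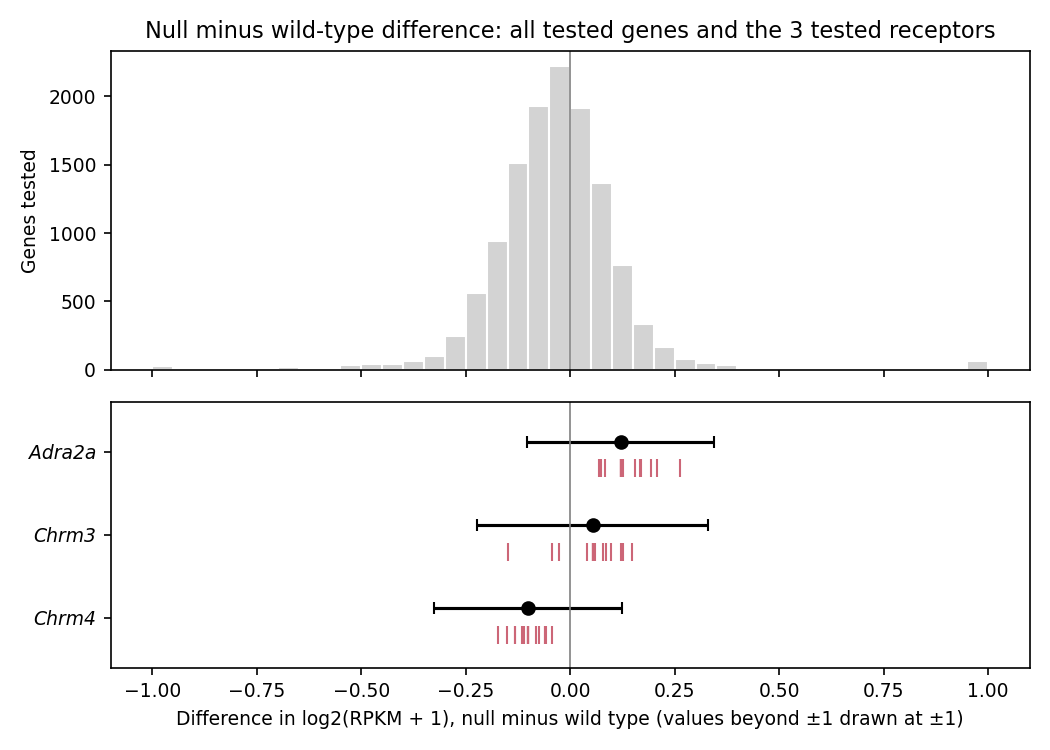
Top, number of tested genes by difference in log2(RPKM + 1), null minus wild type. Bottom, the differences of Adra2a, Chrm3 and Chrm4 with 95% intervals from limma (black) and their values under each of 17 other settings (red ticks); every interval includes 0, and the ticks of Chrm3 lie on both sides of 0.

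The median difference of the 3 tested receptors was 0.05, beside -0.03 for all 12652 genes tested, and the median absolute difference of all tested genes was 0.08. The genes whose values moved most like each tested receptor over the 6 libraries were found by the root mean square distance between log2(RPKM + 1) values centred on their own means. For Adra2a these were Sephs2, Ticam1 and Hps6, at distances of 0.024, 0.029 and 0.034. For Chrm3 they were Nck2, Egfr and Itgb8, at 0.032, 0.037 and 0.040. For Chrm4 they were 2310043O21Rik, Zcchc3 and Acss2, at 0.023, 0.023 and 0.024. The number of genes within 2 times the smallest distance was 8 for Adra2a, 18 for Chrm3 and 117 for Chrm4. Chrm4 also had the smallest SD over the libraries, 0.10 on this scale, against 0.13 for Adra2a and 0.16 for Chrm3, and a flatter profile has more near neighbours. With 6 libraries these are descriptions only.

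The signalling genes around the receptors also showed no call. Of 95 genes in 11 lists, all are in the table and 56 were tested. In limma 0 of 56 passed an adjusted p of 0.05 in either direction, against 0.0158% (2 of 12652) of all genes tested. At an unadjusted p under 0.05 there were 4 of 56, against 9.36% of all genes tested. The groups did not overlap for 11, or 19.6%, against 15.2% of all genes tested. The G proteins that alpha-2, M2 and M4 receptors use were abundant, with 5 of 5 tested and a median difference of -0.03. Gnao1, the alpha subunit of Go, was at 90.1 ± 8.20 and 97.6 ± 3.52 RPKM, Gnai2 at 78.6 ± 5.06 and 76.7 ± 9.30 RPKM, and Gnai3 at 20.4 ± 1.10 and 19.0 ± 0.71 RPKM (SD, n = 3 each). Of the 10 genes on the Gq route, 9 were tested, with a median difference of 0.03. Gnaq was at 41.2 ± 2.23 and 36.9 ± 0.20 RPKM without overlap between the groups (SD, n = 3 each; limma adjusted p = 0.54). Gna11 was at 16.9 ± 0.54 and 17.6 ± 0.67 RPKM (SD, n = 3 each). Itpr3, a receptor for inositol trisphosphate, was at 7.15 ± 0.16 and 7.67 ± 0.05 RPKM, also without overlap (SD, n = 3 each; limma adjusted p = 0.67). The Gs genes, both tested, had a median of -0.09, with Gnas at 425 ± 20.1 and 419 ± 41.8 RPKM (SD, n = 3 each). Gnal was at 4.61 ± 0.06 and 4.04 ± 0.19 RPKM without overlap (SD, n = 3 each; limma adjusted p = 0.53).

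G beta and gamma subunits, 10 of 15 tested, had a median difference of -0.12, beside -0.03 for all genes tested. Gng11 was at 2.38 ± 0.47 and 1.47 ± 0.06 RPKM and Gng10 at 12.7 ± 0.39 and 10.9 ± 0.66 RPKM, without overlap (SD, n = 3 each; limma adjusted p = 0.49 for both). Gng12 was at 71.8 ± 9.65 and 72.8 ± 6.12 RPKM and Gnb2 at 62.9 ± 4.45 and 56.2 ± 4.79 RPKM (SD, n = 3 each). Receptor kinases and arrestins, which end receptor signalling, were all tested (7 of 7), with a median of 0.04. Adrbk2 was at 15.6 ± 1.75 and 17.5 ± 1.12 RPKM, Adrbk1 at 14.6 ± 0.29 and 14.6 ± 1.89 RPKM, and Arrb1, which encodes beta-arrestin 1, at 1.41 ± 0.23 and 0.847 ± 0.04 RPKM without overlap (SD, n = 3 each; Arrb1 limma adjusted p = 0.49). RGS proteins, which speed the shut-off of G alpha subunits, had 13 of 19 tested and a median of -0.02. Rgs9 was at 45.6 ± 6.18 and 42.2 ± 4.41 RPKM, Rgs11 at 32.2 ± 4.33 and 36.3 ± 6.27 RPKM, and Rgs19 at 1.52 ± 0.13 and 1.27 ± 0.34 RPKM (SD, n = 3 each). Rgs22 was at 1.27 ± 0.12 and 1.001 ± 0.08 RPKM without overlap (SD, n = 3 each; limma adjusted p = 0.58). Of the 4 GIRK channel genes, whose channels open on Gi and Go signalling, Kcnj6 alone was tested, at 5.02 ± 0.58 and 5.40 ± 0.47 RPKM, and Kcnj3 was at 0.911 ± 0.42 and 0.783 ± 0.03 RPKM (SD, n = 3 each).

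**Figure D4:**
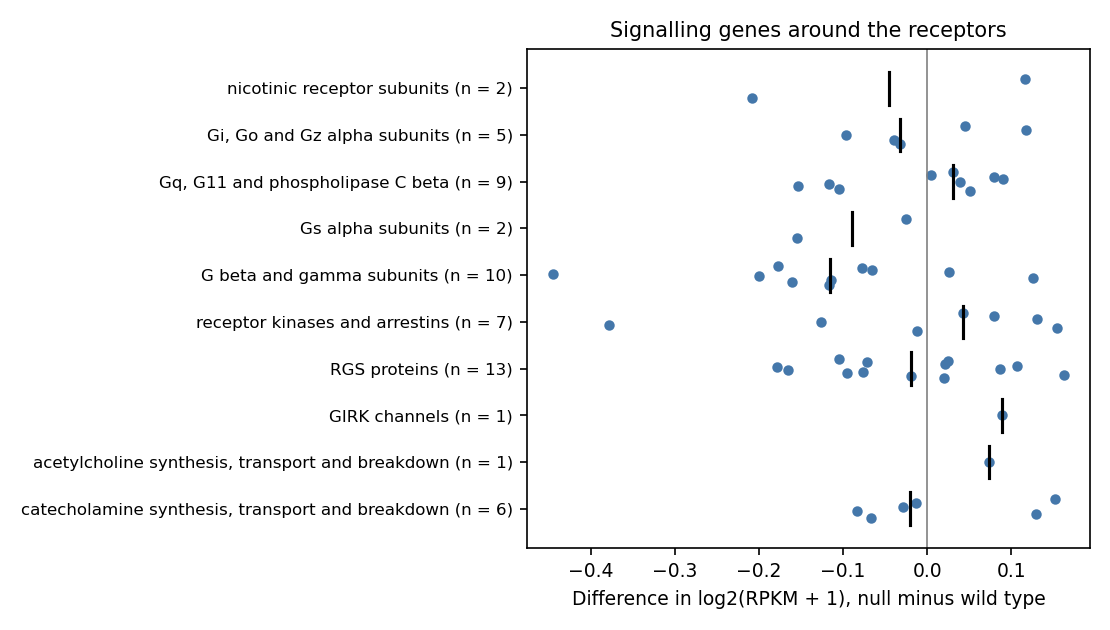
Difference in log2(RPKM + 1), null minus wild type, of the tested genes of each signalling list (points; the vertical spread within a list has no meaning), with the list median as a black bar. No gene passed the test over all genes, and Gng11 lies furthest from 0.

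The second class of acetylcholine receptor, the nicotinic channels, was sparse, with 2 of 13 subunit genes tested. Chrnb2 was at 4.79 ± 0.51 and 5.27 ± 0.44 RPKM and Chrnb1 at 1.98 ± 0.35 and 1.59 ± 0.42 RPKM (SD, n = 3 each), and no alpha subunit gene averaged above 0.229 RPKM. Genes that make and load acetylcholine (Chat, Slc18a3 and Slc5a7) averaged 0.114, 0.090 and 0.077 RPKM. Ache, which breaks acetylcholine down, was tested, at 2.94 ± 0.73 and 3.33 ± 1.71 RPKM, and Bche was at 0.595 ± 0.16 and 0.293 ± 0.10 RPKM without overlap (SD, n = 3 each). Among genes of catecholamine metabolism, 6 of 10 were tested. Ddc was at 104 ± 11.3 and 114 ± 10.9 RPKM, Maob at 44.1 ± 2.76 and 43.1 ± 1.48 RPKM, and Maoa at 1.83 ± 0.02 and 1.67 ± 0.15 RPKM without overlap (SD, n = 3 each; limma adjusted p = 0.77, 0.94 and 0.79). Dbh, Pnmt and Slc6a2, which make noradrenaline and adrenaline and take noradrenaline up, averaged 0.031, 0.011 and 0.004 RPKM.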

How the data were processed

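Libraries were made with a TruSeq kit from the islets of 6 mice, per the labels' protocols. The authors deposited RPKM values, 1 row per RefSeq transcript and 1 column per animal, per the file headers. The submitters' processing notes name STAR, bedtools, DESeq and the build mm9, without roles or versions. No source used here says how reads shared between genes were counted. The analysis used 28011 of 28129 rows, since 117 were empty and 1 held text in place of a number.

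Each symbol was represented by its transcript of highest mean RPKM. Values were transformed to log2(RPKM + 1), and genes averaging at least 1 RPKM were fitted with limma 3.58.1 in R 4.3.3, with group as the only term, eBayes with a mean trend and Benjamini-Hochberg adjustment over all genes tested. The threshold was 0.05. Receptors under 1 RPKM were given an exact permutation test (scipy 1.17.1), which cannot go below 0.10 with 3 against 3. The fit was tested on simulated data. No label pairs the animals, so no block was used. The limma p-values set the difference between groups against the spread between these animals, moderated by the trend over all genes tested.

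Depth is the number of reads for which low values times GENCODE M21 transcript length come closest to whole numbers. The share of low values within 0.1 of a whole read was 74.6% to 76.4%. Reads of Adra2b, Adra2c, Adrb1, Chrm1 and Chrm5 are the fewest whole numbers that match all 6 values, and the other reads are estimates from the GENCODE length.

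The receptors and gene lists were chosen with earlier results of these data known. In each signalling list the 2 most abundant genes and the 2 with the smallest p were named; the values of 1 such gene are not reported here. For the acetylcholine genes Chat, Slc18a3 and Slc5a7 and for Dbh, Pnmt and Slc6a2, the choice was made after values were seen. Figures were drawn with matplotlib 3.10.9.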

Additional observations from a re-analysis of the deposited data

How the results depend on the processing

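None of the tested receptors passed under any of 17 other settings: other low-value filters, pseudocounts, scalings, transcript choice, eBayes options, an acinar covariate, and each library left out. Over these settings the log2 difference ran from 0.07 to 0.26 for Adra2a (limma adjusted p from 0.57 to 0.98), from -0.15 to 0.15 for Chrm3 (0.61 to 0.99) and from -0.17 to -0.04 for Chrm4 (0.64 to 0.98). Chrm3 changed sign with the acinar mean as a covariate (-0.149) and, with 1 library left out, ranged from -0.043 to 0.148; the cause was not tested. The count of all genes past the threshold was 2, and it was 4 without a filter (more genes tested), 1 with the acinar covariate, 5 with a robust trend and 1 to 5 with 1 library left out. No paired analysis was possible because the labels give no replicate numbers that the groups share. Depth limits Adra2b, Adra2c, Adrb1, Chrm1 and Chrm5, which had at most 16 reads in a library.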
